A study of Mus musculus with 16 samples.

Results

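The genes of prostaglandin synthesis, breakdown and reception were followed in RNA of the unmyelinated optic nerve head, the short stretch of nerve in which retinal ganglion cell axons run between astrocytes without myelin. They are 10 genes taken by name out of 23337 in the count table: the cyclooxygenases Ptgs1 and Ptgs2, the synthases Ptgds, Ptges, Ptges3 and Ptgis, the receptors Ptgfr, Ptger2 and Ptger4, and the dehydrogenase Hpgd. All 10 passed the filter on low counts, as did 14541 genes in all. The study compared wild type C57BL/6 mice in 4 groups of 4 libraries each, and every library pooled the unmyelinated segments of 4 right optic nerves, 2 of male and 2 of female mice. Microbead-injected nerves came from mice of 13 weeks, 4 weeks after injection of polystyrene microbeads into the right anterior chamber to raise intraocular pressure, and saline-injected nerves came from mice of the same age, 4 weeks after saline. Aged naïve mice were 40 weeks old and young naïve mice were 13 weeks old, and neither received an injection.

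Prostaglandins are lipid signals made on demand. Phospholipases free arachidonic acid from membranes, a cyclooxygenase turns it into prostaglandin H2, and a terminal synthase then sets which prostanoid is formed; each prostanoid acts on G protein-coupled receptors of nearby cells until a transporter and a dehydrogenase end the signal. In nervous tissue, Ptgds is known as an abundant product of the meninges and of oligodendrocytes, while Ptgs2 is known as an inducible enzyme of activity and inflammation, and agonists of the prostaglandin F receptor lower intraocular pressure in the treatment of glaucoma.

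The data are bulk RNA, so fewer cells of a type and less RNA per cell cannot be told apart. Library totals lay between 6213789 and 10726122 counts. The paper lists lower RNA concentrations for saline replicates 1 to 3 than for any microbead-injected sample, while saline replicate 4 lay within the microbead-injected range. All aged samples were more concentrated than all young ones. The part of RNA concentration in the results was not tested. The study set aside 2 libraries after principal component analysis, aged replicate 2 and saline replicate 4; results here rest on the other 14 libraries, and values with all 16 stand beside the calls among the 10 genes. Lars2, the mitochondrial leucyl-tRNA synthetase gene, split the libraries: it lay between 4196 and 6016 CPM, counts scaled to library size, in microbead-injected nerves and between 90.4 and 131 CPM in saline replicates 1 to 3, and between 8559 and 9305 CPM in aged replicates 1, 3 and 4 and between 130 and 213 CPM in young nerves. Saline replicate 4 had 5555 CPM of Lars2, within the microbead-injected range, and aged replicate 2 had 677 CPM, nearer to the young nerves than to the other aged ones. Whether the reads counted at Lars2 came from its own messenger RNA was not tested. Whether these 2 libraries carry the right labels was not tested, nor was the part of this split in the results. Both questions bear on every value with all 16 libraries. Defining markers of astrocytes, oligodendrocytes, meninges, microglia, endothelium, mural cells, and retina and pigment epithelium had counts in all 16 libraries. The library names carry 3 codes, whose meaning the labels do not state: young nerves and aged replicates 1 to 3 share a code, all saline libraries, microbead replicates 1 and 2 and aged replicate 4 share another, and microbead replicates 3 and 4 have a code of their own.

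The promoters of Ptgs2, Ptges3, Ptgds and Hpgd are printed because calls between groups fell on these genes, together with Ptges. Each run holds 250 bases before and 30 bases after the RefSeq start site in GRCm38.p6, read 5′ to 3′ on the gene's own strand, and capitals mark the motifs searched on both strands: the full cAMP response element TGACGTCA, its core TGACG, the E-box CACGTG, the palindromic C/EBP site TTGCGCAA, the GC box GGGCGG and the TATA box TATAAA.
Ptgs2, chr1:150099781-150100060 (+): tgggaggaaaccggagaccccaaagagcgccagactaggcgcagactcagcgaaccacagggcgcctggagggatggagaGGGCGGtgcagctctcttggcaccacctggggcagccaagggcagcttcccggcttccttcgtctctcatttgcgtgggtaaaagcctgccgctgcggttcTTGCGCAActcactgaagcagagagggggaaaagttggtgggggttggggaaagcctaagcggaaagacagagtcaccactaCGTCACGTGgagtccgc
Ptges3, chr10:128058732-128059011 (+): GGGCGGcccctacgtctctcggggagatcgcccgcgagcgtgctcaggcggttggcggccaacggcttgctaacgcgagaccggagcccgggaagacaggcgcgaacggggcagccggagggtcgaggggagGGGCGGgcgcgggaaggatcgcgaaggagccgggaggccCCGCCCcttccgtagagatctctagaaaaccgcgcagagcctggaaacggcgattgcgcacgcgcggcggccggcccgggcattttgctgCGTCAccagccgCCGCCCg
Ptgds, chr2:25469720-25469999 (-): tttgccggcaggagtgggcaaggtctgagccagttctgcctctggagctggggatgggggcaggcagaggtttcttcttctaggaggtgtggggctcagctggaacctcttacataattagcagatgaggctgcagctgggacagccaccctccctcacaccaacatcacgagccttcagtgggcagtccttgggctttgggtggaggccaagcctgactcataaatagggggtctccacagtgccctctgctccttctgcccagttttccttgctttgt
Hpgd, chr8:56294302-56294581 (+): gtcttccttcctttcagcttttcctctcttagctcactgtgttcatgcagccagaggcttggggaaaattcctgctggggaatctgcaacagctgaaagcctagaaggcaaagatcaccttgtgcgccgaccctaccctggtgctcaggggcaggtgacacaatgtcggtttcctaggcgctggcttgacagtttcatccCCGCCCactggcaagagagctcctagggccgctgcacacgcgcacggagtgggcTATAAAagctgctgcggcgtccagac

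The core TGACG stood in Ptgs2 and Ptges3, in both on the minus strand just after the start site, and in no other of the 9 genes whose promoter was at hand (Ptgis had none). It occurs in 20.8% of 32851 promoters of the same length searched, 300 bases. In Ptgs2 it ran into an E-box, a motif held by 7.15% of promoters, and the C/EBP palindrome stood upstream, a motif held by 0.183%. The RefSeq start of Ptgs2 at 150100031 lies before the start of the counted gene at 150100124, so both elements are upstream of the counted exons. GC boxes, in 35.7% of promoters, occurred in 6 of the 9 genes, with 4 copies in Ptges3, 1 in Hpgd and 1 in Ptgs2. Hpgd held TATAAA at bases 5 to 10 after the RefSeq start, not before it, and 13.6% of promoters held these letters; the Ptgds window held none of the motifs, and the full cAMP response element, in 1.79% of promoters, was in none of the 9. These matches describe letters in a window and say nothing of binding.

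Ptgds was the gene with the highest level of the whole table, both in CPM and per kilobase of exon. Averaged over all 16 libraries, Ptgds had 25652 CPM per kb, Ptges3 36.1, Ptgis 23.5, Ptgs1 19.9, Hpgd 14.2, Ptges 10.1, Ptgs2 6.89, Ptgfr 3.84, Ptger2 2.21 and Ptger4 1.75 CPM per kb. The enzymes thus lay above the receptors in mean level. Ptgds was above Ptges3 in 16 of 16 libraries, and each other neighbour in this order kept its place in 11 to 15 of the 16, the fewest for Hpgd over Ptges. The least spread over the 16 libraries was that of Ptgs1, whose highest library was 1.45 times its lowest in CPM, and the widest was that of Ptgds, at 7.93 times. Counts behind these values lay between 34317 and 334246 reads for Ptgds, but only between 31 and 80 for Ptger4 and between 45 and 112 for Ptger2, so counting error weighs most on these receptors.

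**Figure D1:**
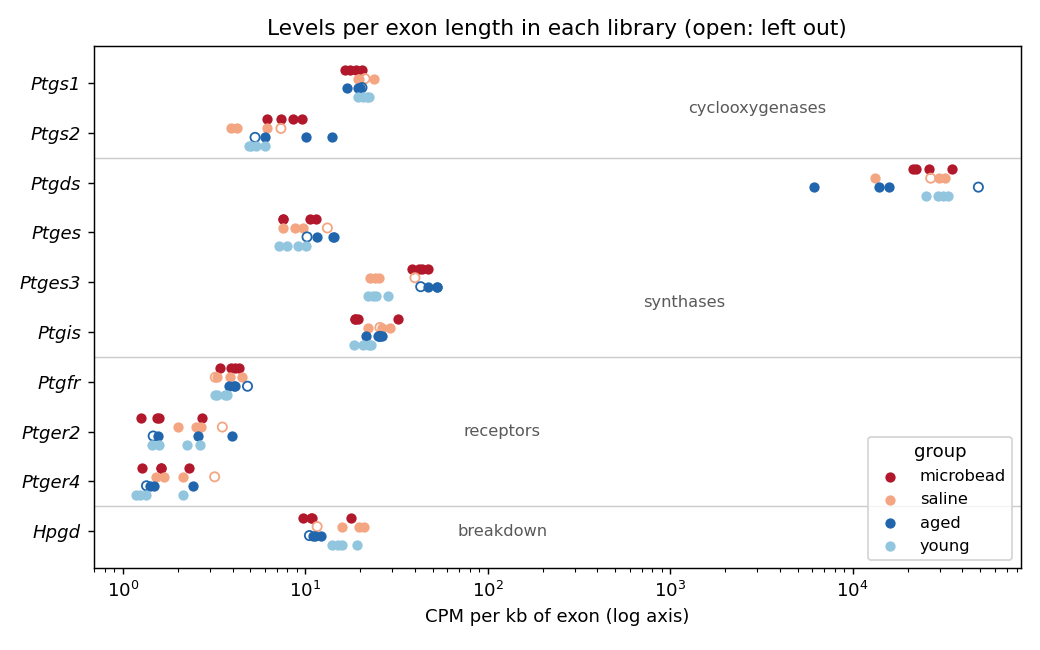
Level of each of the 10 genes in CPM per kb of exon on a log axis, a point per library, with microbead-injected, saline-injected, aged and young nerves from top to bottom within a gene; open circles are the 2 libraries left out. Ptgds lies far above the others in every library, Ptges3 stands next, and the receptors Ptgfr, Ptger2 and Ptger4 lie below 5 CPM per kb.

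The first comparison asked what microbead injection changed in the nerve head against saline injection. Ptges3 and Ptgs2 rose and Hpgd fell in microbead-injected nerves, and the other 7 genes did not pass the test. A gene was called when its fold change was at least 1.5, its p under 0.01 and its Benjamini-Hochberg adjusted p under 0.05 in the quasi-likelihood test of edgeR. So 3 of 10 genes were called, 2 higher and 1 lower, where 12.4% of the 14541 genes were called, 9.39% higher and 3.06% lower. Of 15 alternatives of processing, Ptges3 kept its call in 14, Ptgs2 in 6 and Hpgd in 8. With all 16 libraries none of the 10 was called, and 0% of 14417 genes were (by edgeR, 2772 genes had an unadjusted p under 0.05, and the smallest adjusted p was 0.206). The median log2 fold change of the 10 genes was -0.03, and that of all genes was -0.01.

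The second comparison asked what differed between aged and young naïve nerves. Ptges3, Ptgs2 and Ptges rose and Ptgds fell with age. This made 4 of 10 genes called, 3 higher and 1 lower, where 26.5% of all genes tested were called, 15.1% higher and 11.4% lower. With all 16 libraries 1 of the 10 genes, Ptges3, was called, where 19.7% of 14417 genes were. The median log2 fold change of the 10 genes was 0.23, and that of all genes was 0.02. Neither comparison shares a library with the other.

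**Figure D2:**
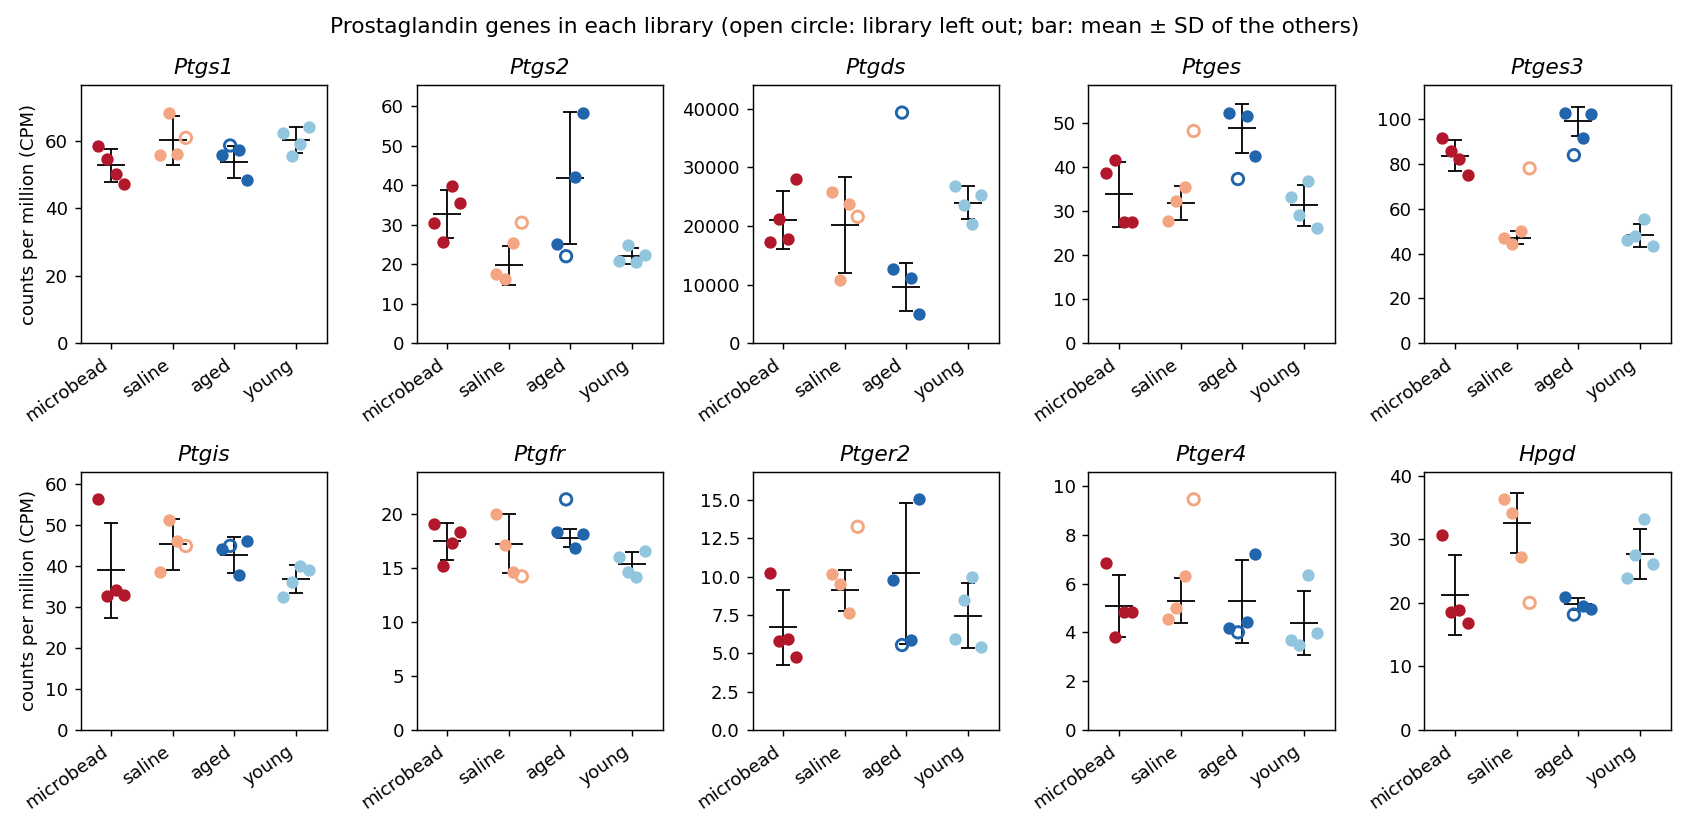
CPM of each gene in every library, by group; filled circles are the 14 libraries kept, open circles the 2 left out, and bars the mean ± SD of the kept libraries. Ptges3 lies above 75 CPM in all microbead-injected and aged libraries and below 56 CPM in young nerves and saline replicates 1 to 3, while saline replicate 4 has 78.1 CPM.

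Of the cyclooxygenases, Ptgs1 (chromosome 2, 36230426 to 36252269, mm10) is the constitutive form and Ptgs2 (chromosome 1, 150100124 to 150108012) the inducible form. Ptgs2 had 30.5, 25.7, 39.7 and 35.4 CPM in the 4 microbead-injected libraries, against 17.5, 16.2 and 25.5 CPM in replicates 1 to 3 of saline with 30.5 CPM in the left-out replicate 4. Without saline replicate 4 the groups did not overlap, though the lowest microbead-injected library and the highest saline one were nearly level. Ptgs2 rose by 0.74 on the log2 scale (SE 0.25, edgeR adjusted p = 0.0311), and by 0.55 with all 16 libraries (edgeR adjusted p = 0.259). This call was also lost on leaving out saline replicate 1 (0.67, edgeR adjusted p = 0.113), saline replicate 2 (0.61, 0.131), microbead replicate 1 (0.78, 0.0451), microbead replicate 3 (0.64, 0.0762) or microbead replicate 4 (0.72, 0.0626), each pair of values being a log2 fold change and an adjusted p. Among the libraries that share a code, which leave microbead replicates 1 and 2, the log2 fold change was 0.52 (edgeR adjusted p = 0.126). With no filter on low counts it was 0.75 (edgeR adjusted p = 0.0482), and the call was lost there too.

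With age, Ptgs2 had 25.1, 42.1 and 58.4 CPM in aged replicates 1, 3 and 4 with 22.03 CPM in the left-out replicate 2, against 20.8, 24.9, 20.5 and 22.3 CPM in young nerves. Aged replicate 4 had the highest level of all 16 libraries, aged replicate 1 was just above the highest young library, and aged replicate 2 was inside the young range. The rise was 0.91 on the log2 scale (SE 0.24, edgeR adjusted p = 0.00548), or 0.73 with 16 libraries (edgeR adjusted p = 0.0412, with an unadjusted p over the limit, so not called). Without aged replicate 4 it was 0.60 (edgeR adjusted p = 0.0373) and the call was lost. The SD among the kept aged libraries was 16.7 CPM around a mean of 41.9 CPM, against 1.97 CPM around 22.1 CPM in young nerves.

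Ptgs1 averaged 52.7 ± 4.96 CPM in microbead-injected nerves and 60.1 ± 7.17 CPM in saline-injected nerves (SD, n = 4 and 3), and 53.8 ± 4.77 CPM in aged nerves and 60.3 ± 3.87 CPM in young nerves (n = 3 and 4). Its log2 fold changes were -0.19 (edgeR adjusted p = 0.162) and -0.17 (edgeR adjusted p = 0.2), and the groups overlapped in both comparisons. The ratio of Ptgs2 to Ptgs1 per kb within a library was 0.359, 0.325, 0.546 and 0.518 in microbead-injected nerves, against 0.217, 0.163 and 0.313 in replicates 1 to 3 of saline with 0.346 in the left-out replicate 4. In aged replicates 1, 3 and 4 the ratio was 0.311, 0.509 and 0.836, with 0.259 in the left-out replicate 2, against 0.231, 0.310, 0.240 and 0.240 in young nerves. Ptgs1 was thus the more abundant cyclooxygenase transcript per length in every library. The model Gm43621 on the other strand covers 5.17% of the Ptgs1 exons, and without strand the reads of both cannot be told apart.

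The 5 genes whose log2 CPM followed Ptgs2 most closely over the 16 libraries, among 10233 genes, were Per1 (Pearson r = 0.91), Lancl2 (0.91), 1810013L24Rik (0.90), Zfp282 (0.89) and Spata2 (0.89). Per1 is a core gene of the circadian clock. It had 27.2, 17.0, 28.8 and 21.7 CPM in microbead-injected nerves, against 8.27, 9.75 and 9.88 CPM in replicates 1 to 3 of saline with 28.4 CPM in the left-out replicate 4, and aged replicate 4 was highest with 46.3 CPM. All 5 genes were picked for likeness over these same libraries, so shared high and low libraries follow from the choice and are a description.

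Of the prostaglandin E synthases, Ptges (chromosome 2, 30889471 to 30903297), the inducible microsomal enzyme, is known to work with Ptgs2, and Ptges3 (chromosome 10, 128058982 to 128077254) is the cytosolic form, also known as the Hsp90 co-chaperone p23. Ptges3 had 91.6, 85.9, 82.5 and 75.1 CPM in microbead-injected nerves, against 47.1, 44.1 and 49.9 CPM in replicates 1 to 3 of saline with 78.1 CPM in the left-out replicate 4. All 4 microbead-injected libraries were above the first 3 saline ones by a wide gap, while saline replicate 4 lay within the microbead-injected range. The rise was 0.83 on the log2 scale (SE 0.10, edgeR adjusted p = 1.3e-05), the smallest p of the 10 genes, and 0.61 with all 16 libraries (edgeR adjusted p = 0.206). It was called in each other alternative of processing, at 0.79 to 0.89 on leaving out any kept library.

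With age, Ptges3 had 103.0, 91.5 and 102.5 CPM in aged replicates 1, 3 and 4 with 84.0 CPM in the left-out replicate 2, against 46.2, 48.01, 55.2 and 43.2 CPM in young nerves. Here the aged libraries, including the one left out, were all above the young ones. The rise was 1.04 on the log2 scale (SE 0.10, edgeR adjusted p = 2.26e-07), and 0.98 with 16 libraries (edgeR adjusted p = 0.000237). It passed in every alternative, from 0.98 to 1.17. A stretch of the Ptges3 transcript 480 bases long is identical in the pseudogene Ptges3-ps and another of 495 bases is 94.3% identical in Gm11893; counts for neither were analysed here, and reads shared with them are uncertain.

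Other parts of the Hsp90 machinery were listed beside the inducers of Ptgs2. Hsp90ab1, the constitutive cytosolic chaperone, had 412, 476 and 324 CPM in aged replicates 1, 3 and 4 with 607 CPM in the left-out replicate 2, against 912, 913, 857 and 944 CPM in young nerves, a fall by 1.17 on the log2 scale (edgeR adjusted p = 3.62e-07). Stip1, the adaptor between Hsp70 and Hsp90, fell by 1.27 (edgeR adjusted p = 2.82e-06), Ahsa1, an activator of the Hsp90 ATPase, by 0.77 (7.04e-06) and Hsp90aa1, the stress-induced chaperone, named after its values were seen, by 0.64 (0.00261). The immunophilin Fkbp4 had a log2 fold change of -0.57 (edgeR adjusted p = 2.85e-05), short of 1.5-fold. In the fit with all 16 libraries Hsp90ab1 (-0.99) and Stip1 (-1.26) were still called, while Ahsa1 (-0.51) and Hsp90aa1 (-0.39, edgeR adjusted p = 0.137) were not. Of all genes tested, 11.4% were called lower with age and 3.06% lower after microbeads. None of these chaperone genes was called after microbeads. The log2 fold changes of these chaperone genes after microbeads were all below 0. Fkbp4 had -0.33 (edgeR adjusted p = 0.00506) and Ahsa1 -0.32 (0.0157), both short of 1.5-fold. Hsp90ab1 had -0.24 (0.103), Hsp90aa1 -0.13 (0.554) and Stip1 -0.10 (0.6).

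Ptges had 38.6, 41.7, 27.6 and 27.5 CPM in microbead-injected nerves, against 27.7, 32.3 and 35.5 CPM in replicates 1 to 3 of saline with 48.3 CPM in the left-out replicate 4. The groups overlapped throughout, and the log2 fold change of 0.09 (SE 0.16, edgeR adjusted p = 0.713) turned to -0.09 with 16 libraries. With age Ptges had 52.5, 51.7 and 42.5 CPM in aged replicates 1, 3 and 4 with 37.3 CPM in the left-out replicate 2, against 33.3, 29.1, 36.9 and 26.1 CPM in young nerves. Each aged library was above each young one, aged replicate 2 by a margin within the spread of the young nerves. The rise was 0.64 (SE 0.16, edgeR adjusted p = 0.00241), close to the limit of 0.585 that 1.5-fold sets on this scale. It was 0.55 with all 16 libraries (edgeR adjusted p = 0.0309) and 0.56 without young replicate 4 (edgeR adjusted p = 0.00967), below that limit in both.

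**Figure D3:**
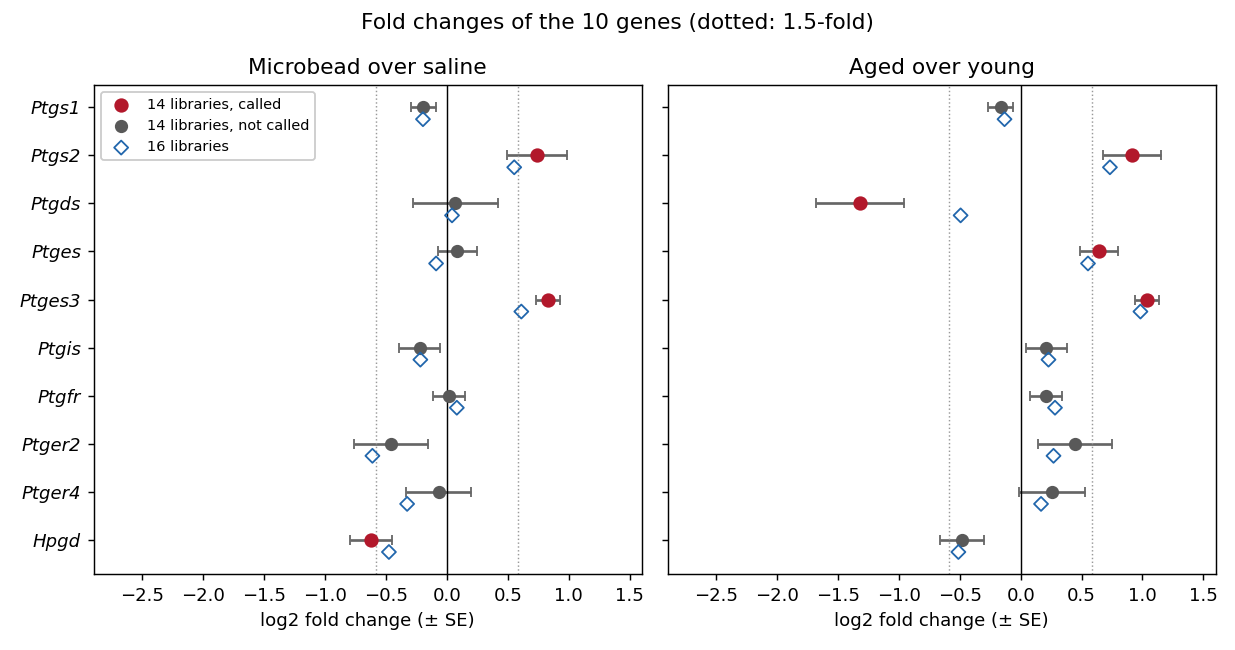
Log2 fold changes with their SE from the fit of 14 libraries (circles, red where called) and without SE from that of 16 libraries (diamonds), microbead over saline on the left and aged over young on the right; dotted lines mark 1.5-fold. Ptges3 moves furthest of the 10 genes in the left panel, at 0.83, and in the right panel Ptgds stands furthest below 0 at -1.32 with 14 libraries and at -0.49 with 16.

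Ptgds (chromosome 2, 25466712 to 25469749), which makes prostaglandin D2 and as a secreted lipocalin also carries small lipids, took between 0.552% of all counts in aged replicate 4 (95% Clopper-Pearson interval 0.546 to 0.558) and 3.75% in aged replicate 2 (3.73 to 3.76). These intervals cover counting error only, since the reads carry no molecular identifiers. In CPM, Ptgds had 12678, 11166 and 4963 in aged replicates 1, 3 and 4 with 39371 in the left-out replicate 2, against 26815, 23525, 20365 and 25263 in young nerves. The 3 kept aged libraries were all below the young ones, and the library left out was the highest of all 16. Ptgds fell by 1.32 on the log2 scale (SE 0.36, edgeR adjusted p = 0.0105). With all 16 libraries the log2 fold change was -0.49 (edgeR adjusted p = 0.432), so the direction stood and the call rested on leaving out aged replicate 2.

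After injection, Ptgds had 17213, 21224, 17857 and 28049 CPM in microbead-injected nerves, against 25784, 10740 and 23811 CPM in replicates 1 to 3 of saline with 21574 CPM in the left-out replicate 4. Saline replicate 2 was low, and the microbead-injected range lay wholly inside the saline one apart from its highest library. The log2 fold change was 0.07 with an SE of 0.35 (edgeR adjusted p = 0.902), and it was -0.23 without saline replicate 2. In the direct comparison of microbead-injected with aged nerves Ptgds was 1.14 higher on the log2 scale (SE 0.36, edgeR adjusted p = 0.0391). That was 1 of 10 genes called, where 10.9% of genes tested were; leaving out any 1 library of the 2 groups except aged replicate 1 ended the call, with values of 0.83 to 1.26, and with 16 libraries the difference was 0.31 (edgeR adjusted p = 0.683).

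The 5 genes most like Ptgds over the 16 libraries were Gpr182 (r = 0.96), Wnt4, Slc22a8, Crabp2 and Igf2 (0.95 each). Slc22a8 is an organic anion transporter and Crabp2 a retinoic acid binding protein, both known in the leptomeninges, and Igf2 is a growth factor known there as well. Crabp2 had 38.7, 61.1 and 26.8 CPM in aged replicates 1, 3 and 4 with 213 CPM in the left-out replicate 2, against 99.2, 93.0, 84.3 and 121 CPM in young nerves. Aged replicate 4 was the lowest library for all 5 genes, as for Ptgds. The 5 genes were picked for likeness over these same libraries, so shared high and low libraries follow from the choice and are a description. Aged replicate 2, the highest for Ptgds, was the highest for Gpr182 and Crabp2, but not for Wnt4, Slc22a8 or Igf2. In saline replicate 2, where Ptgds was low, Crabp2 had 42.4 CPM, against 105 and 86.3 CPM in saline replicates 1 and 3.

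Several sums of cell type markers were lower in the kept aged libraries as well. The 14 meningeal and fibroblast markers, Crabp2 among them, summed to between 5193 and 6444 CPM in the kept aged libraries and to 6975 CPM in aged replicate 2, against 7072 to 7734 CPM in young nerves, and 1 of the 14 rose and 5 fell with age, where 15.1% of all genes rose and 11.4% fell (2 of the 14 were called with all 16 libraries). The 10 oligodendrocyte markers summed to between 5538 and 7736 CPM in the kept aged libraries and to 7260 CPM in aged replicate 2, against 10477 to 12713 CPM in young nerves, and 1 of the 10 rose and 2 fell (4 were called with all 16 libraries). Other sums were lower with age too: 8 astrocyte markers summed to between 8315 and 8935 CPM in the kept aged libraries, against 11227 to 13831 CPM in young nerves, and 7 mural markers to between 654 and 724 CPM, against 945 to 1081 CPM in young nerves. Of all 16 libraries aged replicate 2 was highest for Ptgds but for none of these 4 sums. In saline replicate 2, where Ptgds was low, the meningeal sum of 7663 CPM was inside the young range and the oligodendrocyte sum of 14957 CPM was the highest of all 16 libraries. The meningeal sum is weighted to abundant genes such as Dcn and Col1a2. In aged replicate 2 its markers, named after their values were seen, went both ways. Slc6a13 had 652 and Slc22a6 78.4 CPM, against kept aged means of 229 and 21.4 CPM. Col1a1 and Col1a2 went the other way, with 82.8 and 343 CPM, against means of 288 and 705 CPM. The 8 retina and pigment epithelium markers summed to between 1923 and 5383 CPM in the kept aged libraries and to 2965 CPM in aged replicate 2. Young nerves had 1419 to 4463 CPM, so this sum was not lower with age. It was highest of all 16 libraries in saline replicate 2, at 5951 CPM. None of these markers was at 0 in any library, and the part of any cell type in the Ptgds values was not tested.

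**Figure D4:**
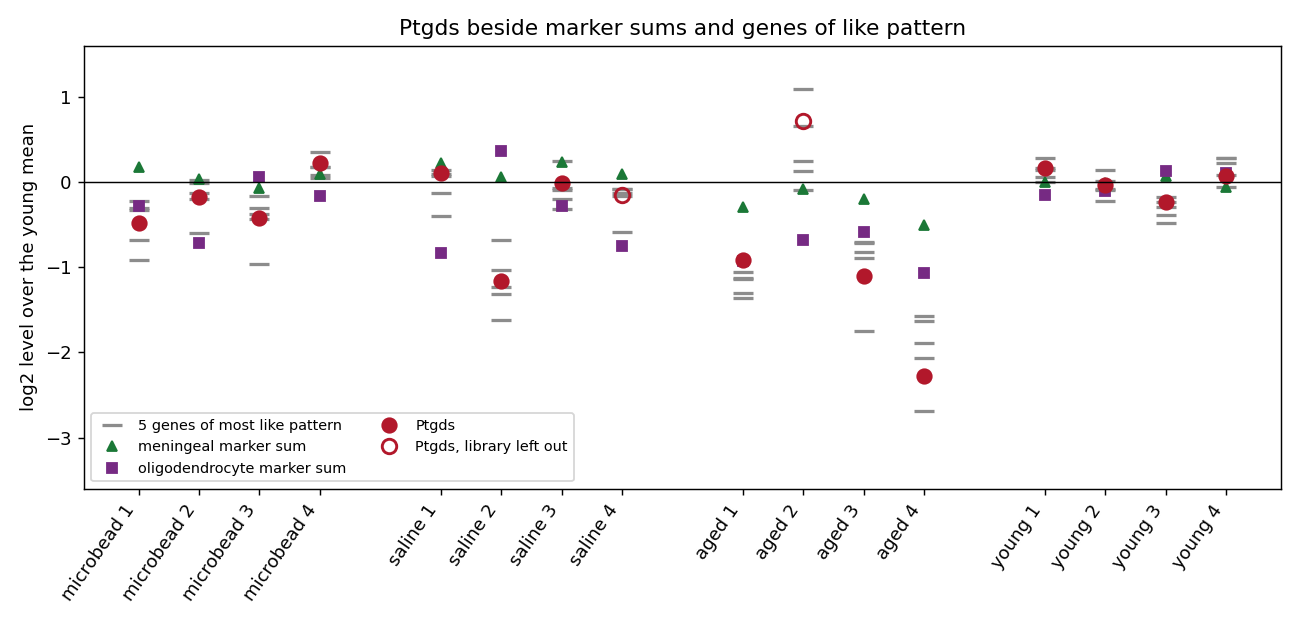
Log2 level over the mean of the young nerves in each library for Ptgds (circles, open where the library was left out), the 5 genes of most like pattern (dashes), the meningeal marker sum (triangles) and the oligodendrocyte marker sum (squares). Ptgds and the like genes, which were picked for this likeness, dip together in saline replicate 2 and aged replicates 1, 3 and 4. The marker sums span a narrower range.

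Ptgis (chromosome 2, 167203196 to 167240537) makes prostacyclin, a dilator of vessels. It had 56.4, 32.8, 34.1 and 32.9 CPM in microbead-injected nerves, against 38.7, 51.2 and 46.1 CPM in replicates 1 to 3 of saline with 45.0 CPM in the left-out replicate 4. Microbead replicate 1 stood apart above all 16 libraries, and the other 3 were below every saline library. The log2 fold change was -0.22 (SE 0.17, edgeR adjusted p = 0.324), or -0.45 without microbead replicate 1 (edgeR adjusted p = 0.00899), still below 1.5-fold. Aged nerves averaged 42.7 ± 4.41 CPM and young nerves 37.0 ± 3.46 CPM (SD, n = 3 and 4), overlapping ranges with a log2 fold change of 0.21 (edgeR adjusted p = 0.327).

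Hpgd (chromosome 8, 56294552 to 56321046), the 15-hydroxyprostaglandin dehydrogenase that begins the breakdown of prostaglandins, fell after microbead injection. It had 30.6, 18.6, 18.9 and 16.8 CPM in microbead-injected nerves, against 36.3, 34.1 and 27.2 CPM in replicates 1 to 3 of saline with 20.0 CPM in the left-out replicate 4. Microbead replicate 1 lay within the saline range, the other 3 lay below it, and saline replicate 4 was close to those 3. Hpgd fell by 0.63 on the log2 scale (SE 0.17, edgeR adjusted p = 0.01), and by 0.48 with all 16 libraries (edgeR adjusted p = 0.221). Being near the limit of 0.585, it was no longer called without saline replicate 1 (-0.54), microbead replicate 2 (-0.57), microbead replicate 3 (-0.57) or microbead replicate 4 (-0.51), with adjusted p of 0.0318 to 0.0458, and it was -0.85 without microbead replicate 1. Among libraries that share a code it was -0.40 (edgeR adjusted p = 0.244).

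With age Hpgd had 20.9, 19.5 and 19.1 CPM in aged replicates 1, 3 and 4 with 18.1 CPM in the left-out replicate 2, against 24.0, 27.5, 33.2 and 26.1 CPM in young nerves. All aged libraries were below all young ones, in contrast to the overlap after injection. The log2 fold change was -0.48 (SE 0.18, edgeR adjusted p = 0.0338), short of both 1.5-fold and the limit on p. With 16 libraries it was -0.51 (edgeR adjusted p = 0.0564).

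No receptor of the set was called in either comparison. Ptgfr (chromosome 3, 151798610 to 151837528), the prostaglandin F receptor and the target of glaucoma drugs, averaged 17.4 ± 1.71 CPM in microbead-injected nerves and 17.2 ± 2.72 CPM in saline-injected nerves (SD, n = 4 and 3). It had 18.3, 16.8 and 18.1 CPM in aged replicates 1, 3 and 4 with 21.3 CPM in the left-out replicate 2, against 16.02, 14.6, 14.2 and 16.5 CPM in young nerves. The aged libraries were all just above the young ones, by a log2 fold change of 0.21 (SE 0.13, edgeR adjusted p = 0.195), and the injected groups overlapped at 0.02 (SE 0.13, edgeR adjusted p = 0.934). The model Gm43618 on the other strand covers 5.14% of the Ptgfr exons and its reads cannot be told apart.

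Ptger2 (chromosome 14, 44988111 to 45003820) and Ptger4 (chromosome 15, 5233404 to 5243831), the prostaglandin E receptors that raise cAMP, were the lowest of the 10. Ptger2 had 10.2, 5.8, 5.9 and 4.7 CPM in microbead-injected nerves, against 10.1, 9.5 and 7.6 CPM in replicates 1 to 3 of saline with 13.3 CPM in the left-out replicate 4. Microbead replicate 1 was level with the highest of those 3 saline libraries, and the log2 fold change was -0.46 with an SE of 0.31 (edgeR adjusted p = 0.272). In aged replicates 1, 3 and 4 it had 9.8, 5.9 and 15.0 CPM and in aged replicate 2 5.5 CPM, against 5.9, 8.5, 10.0 and 5.4 CPM in young nerves, overlapping values with a log2 fold change of 0.44 (SE 0.31, edgeR adjusted p = 0.245). Ptger4 averaged 5.08 ± 1.27 CPM in microbead-injected and 5.30 ± 0.931 CPM in saline-injected nerves, and 5.27 ± 1.70 CPM in aged nerves and 4.38 ± 1.33 CPM in young nerves (SD, n = 4, 3, 3 and 4). Its log2 fold changes of -0.07 and 0.25 had SEs of 0.27 each, so their size was not resolved. Models on the other strand cover 6.53% and 3.82% of the Ptger2 exons, and 874 bases of the Ptger4 transcript are identical in the pseudogene Gm15937.

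Microbead replicate 1 was the highest of its group for 7 of the 10 genes, Ptgs1, Ptges3, Ptgis, Ptgfr, Ptger2, Ptger4 and Hpgd. Young replicate 3 was the highest of its group for 6 and saline replicate 4 for 5, and aged replicate 2 was the lowest of its group for 6.

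Saline injection was set against the naïve state in saline-injected and young nerves. None of the 10 genes was called or had p under 0.05 by edgeR, where 0.00688% of genes tested, 1 gene, was called and 1744 had p under 0.05 (56 genes were called by DESeq2). Ptges3 averaged 47.0 ± 2.91 CPM in saline-injected and 48.2 ± 5.11 CPM in young nerves (SD, n = 3 and 4). Ptgs2 averaged 19.7 ± 5.03 CPM in saline-injected and 22.1 ± 1.97 CPM in young nerves. Hpgd averaged 32.5 ± 4.71 CPM in saline-injected and 27.7 ± 3.97 CPM in young nerves. These groups differ in library code, so injection and code cannot be told apart.

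The response to microbeads was also set against the response to age, as the difference of their log2 fold changes in the same fit. None of the 10 genes was called, where 7.60% of genes tested were. By edgeR 2 of the 10 had p under 0.05, where 3780 of all 14541 genes had. Ptgds had a difference of 1.39 (SE 0.50, edgeR adjusted p = 0.107) and was called by DESeq2 at 1.41 (adjusted p = 0.0228). Ptges had -0.56 (SE 0.22, edgeR adjusted p = 0.119), and a p that misses the threshold does not show the responses to be alike. In the direct comparison Ptges was 0.53 lower in microbead-injected than in aged nerves (edgeR adjusted p = 0.0178), short of 1.5-fold. For Ptges3, Ptgs2 and Hpgd the differences were -0.21, -0.17 and -0.15, with edgeR adjusted p of 0.366, 0.799 and 0.76.

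Genes upstream of the cyclooxygenases were taken as a list of 18, of which 13 were tested. In microbead-injected nerves 1 rose and 1 fell, and with age 3 rose and 4 fell, where 9.39% of all genes rose and 3.06% fell after microbeads and 15.1% rose and 11.4% fell with age. Their median log2 fold change was -0.09 after microbeads and 0.03 with age. Dagla, which makes the endocannabinoid 2-arachidonoylglycerol, had 10.1, 13.7, 9.48 and 10.7 CPM in microbead-injected nerves, against 5.07, 4.22 and 6.08 CPM in replicates 1 to 3 of saline with 10.1 CPM in the left-out replicate 4, and rose by 1.11 (edgeR adjusted p = 0.000194). The microbead-injected libraries were all above saline replicates 1 to 3, and saline replicate 4 was level with them. Dagla rose by 1.54 with age (edgeR adjusted p = 2.48e-06). It had 10.9, 10.1 and 10.8 CPM in aged replicates 1, 3 and 4, against 3.29 to 4.03 CPM in young nerves, from 29 to 36 reads. The left-out aged replicate 2 had 2.00 CPM, below every young library. Its log2 fold changes with all 16 libraries were 0.79 after microbeads (edgeR adjusted p = 0.239) and 1.21 with age (edgeR adjusted p = 0.021). Mgll, which hydrolyses 2-arachidonoylglycerol to arachidonic acid, had 160, 137 and 131 CPM in aged replicates 1, 3 and 4 with 167 CPM in the left-out replicate 2, against 276, 309, 320 and 316 CPM in young nerves. All aged libraries were far below all young ones. Mgll fell by 1.10 with age (edgeR adjusted p = 1.16e-07), and its change of -0.57 after microbeads (adjusted p = 0.000186) was just short of 1.5-fold. The secreted phospholipase Pla2g5 rose by 1.36 with age (edgeR adjusted p = 6.58e-06), and Pla2g12a fell by 0.67 (edgeR adjusted p = 1.36e-05), or by 0.52 with all 16 libraries, where it was not called, while Mgll (-1.04) and Pla2g5 (1.18) were. The other calls of this list, named after their values were seen, were Pla2g2e, lower after microbeads, and Plaa, higher, and Pla2g16 and Pla2g7, lower, with age.

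Of 5 other synthases tested, none rose; 1 fell after microbeads, where 3.06% of all genes fell, and 2 fell with age, where 11.4% did. Cbr1, a carbonyl reductase that can turn prostaglandin E2 into F2α, had 37.7, 41.4, 39.2 and 49.2 CPM in microbead-injected nerves, against 67.6, 66.2 and 57.0 CPM in replicates 1 to 3 of saline with 46.8 CPM in the left-out replicate 4. The groups did not overlap without saline replicate 4, which lay in the microbead-injected range. It fell by 0.60 (edgeR adjusted p = 0.00045) and fell by 1.07 with age (edgeR adjusted p = 7.65e-07). Its log2 fold changes with all 16 libraries were -0.50 after microbeads (edgeR adjusted p = 0.206) and -0.80 with age (edgeR adjusted p = 0.00353). Hpgds, the haematopoietic counterpart of Ptgds in making prostaglandin D2, fell by 0.65 with age (edgeR adjusted p = 0.0102), and by 0.63 with all 16 libraries. It is known in microglia and macrophages, of whose 10 markers 5 fell with age, 4 fell after microbeads and none rose in either comparison, beside 11.4% and 3.06% of all genes lower; with all 16 libraries 3 were called with age and 0 after microbeads. Their sum was 593 to 753 CPM in the kept aged libraries, against 1039 to 1313 CPM in young nerves, and its part in the Hpgds value was not tested.

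Among 6 other receptors tested, only Ptgdr, a receptor of prostaglandin D2, was called, in both comparisons and in opposite directions. Of all genes tested, 12.4% were called after microbeads and 26.5% with age. It had 15.1, 12.7, 14.8 and 12.2 CPM in microbead-injected nerves, against 8.54, 4.72 and 7.73 CPM in replicates 1 to 3 of saline with 12.9 CPM in the left-out replicate 4, and rose by 0.98 (SE 0.21, edgeR adjusted p = 0.00156). In aged nerves it had 6.66, 9.45 and 6.36 CPM in replicates 1, 3 and 4 and 25.9 CPM in replicate 2, against 15.0, 10.96, 11.6 and 15.0 CPM in young nerves, and fell by 0.81 (SE 0.21, edgeR adjusted p = 0.0035). Without the left-out libraries the groups did not overlap in either comparison, while saline replicate 4 lay in the microbead-injected range and aged replicate 2 above every other library. The difference of the responses was 1.79 (SE 0.29, edgeR adjusted p = 0.0019). Ptgdr averaged 13.7 ± 1.47 CPM in microbead-injected, 7.00 ± 2.01 CPM in saline-injected and 13.1 ± 2.17 CPM in young nerves (SD, n = 4, 3 and 4), and saline-injected nerves were 0.92 lower than young ones on the log2 scale, short of the threshold (edgeR adjusted p = 0.13). None of these calls stood with all 16 libraries, with log2 fold changes of 0.70 after microbeads and -0.11 with age, and the difference had an adjusted p of 0.427 by edgeR.

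In transport and breakdown, Abcc4, an exporter of prostaglandins, rose by 0.59 after microbeads (edgeR adjusted p = 0.00218) and by 0.63 with age (edgeR adjusted p = 0.000519), both close to 1.5-fold and neither called with all 16 libraries. It had 24.96, 31.0, 28.0 and 27.3 CPM in microbead-injected nerves, against 16.4, 21.6 and 17.1 CPM in replicates 1 to 3 of saline with 30.9 CPM in the left-out replicate 4, which again lay in the microbead-injected range. The aldo-keto reductase Akr1b10 fell by 1.08 with age (edgeR adjusted p = 3.51e-06), and by 0.78 with all 16 libraries. Of the 8 genes of this list no other was called. Over all genes tested 12.4% were called after microbeads and 26.5% with age, which are also the shares beside the next list. In the leukotriene branch, 9 genes were tested: Ltc4s, which makes leukotriene C4, fell by 1.46 with age (edgeR adjusted p = 3.25e-05), or by 1.03 with all 16 libraries, and Alox12 fell by 0.62 after microbeads (edgeR adjusted p = 0.0174), a call lost with all 16 (edgeR adjusted p = 0.206). Of 20 tested genes of receptor signalling, Ptgs2 induction and Hsp90, 1 rose and 2 fell after microbeads and 3 rose and 4 fell with age, where 12.4% and 26.5% of all genes were called. Named after their values were seen, these were Ppard, higher, and Nfkbia and Pparg, lower, after microbeads, and Il1r1, the interleukin-1 receptor, the glucocorticoid receptor Nr3c1 and Ppard, higher, with age, beside the 4 Hsp90 genes already given. Median log2 fold changes after microbeads and with age were -0.33 and -0.28 for the other synthases, 0.21 and -0.20 for the other receptors, -0.16 and -0.17 for transport and breakdown, -0.45 and -0.31 for the leukotriene branch and -0.13 and -0.0038 for the signalling list, beside -0.01 and 0.02 for all genes. With all 16 libraries, no gene of these lists and of the list upstream of the cyclooxygenases was called after microbeads, where 0% of all genes were. With age 14 were called, out of lists of 13, 5, 6, 8, 9 and 20 tested genes, where 19.7% of all genes were called. Akr1b3 and Akr1c18 had no counts in any library, which does not show their RNA to be absent. Fam213b and Ptgdr2 were not found under these symbols. Gpr44, an older name of Ptgdr2, had counts in all 16 libraries but did not pass the filter. No fold is given for any of these genes.

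**Figure D5:**
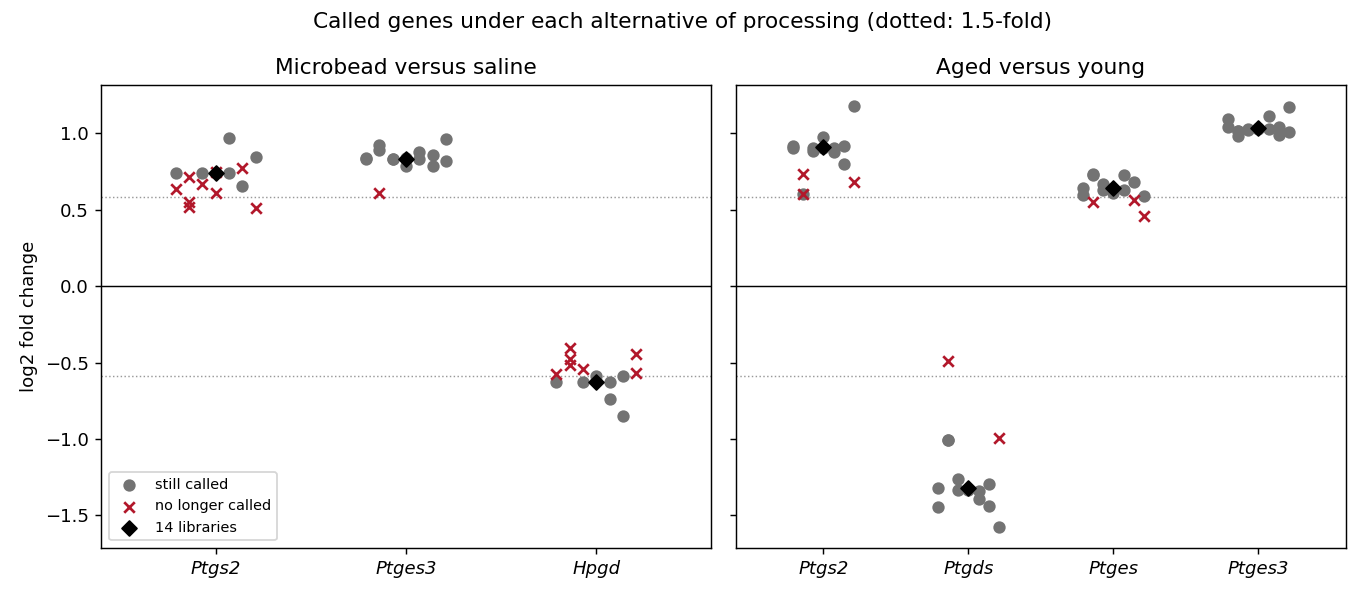
Log2 fold changes of the called genes under each alternative of processing, microbead versus saline on the left and aged versus young on the right; diamonds are the values of 14 libraries, circles alternatives in which the gene was still called, and crosses those in which it was not. Ptges3 has a single cross, at 0.61 with all 16 libraries in the microbead comparison, while Ptgs2 and Hpgd have several in the left panel.

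When a smooth trend of fold change against exon length was removed, Ptges3 stayed called in both comparisons and no other of the 10 genes did. The other called genes kept their direction: Ptgs2 had 0.51 and Hpgd -0.44 after microbeads, and Ptgs2 had 0.68, Ptges 0.46 and Ptgds -0.99 with age, on the log2 scale.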

How the data were processed

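RNA of 16 pooled optic nerve head samples was sequenced on the HiSeq2500 from SMARTer Ultra Low Input v3 libraries, which do not record strand. Per the labels and methods, the authors aligned reads to mm10 with STAR 2.3.0 and made the deposited counts with featureCounts. For the version of featureCounts and for its annotation: not given in the sources used here. Whole, unnormalized counts per gene were deposited together with other values, the exon lengths summed by gene. The authors' comparison tables hold normalized counts with their fold changes and p-values; none of these values was used, and only their headers served to see which 14 libraries were kept.

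Counts were analysed in R 4.3.3 with edgeR 4.0.16: filterByExpr, TMM normalization and the robust quasi-likelihood test in 1 model of 4 groups over 14 libraries, with Benjamini-Hochberg adjustment over all 14541 genes. CPM in the text use TMM factors of all 16 libraries, and log2 fold changes with SE come from the fit. Likeness is Pearson correlation of log2 CPM (prior count 2) over genes with a mean of at least 10 CPM. Depth was 6213789 to 10726122 counts per library. Alternatives were all 16 libraries, DESeq2 1.42.0, its size factors in edgeR, no filter, a replicate block, removal of a length trend (loess, span 0.5), only the compared groups, only libraries of 1 code, no minimum fold, and leaving out each library. The fit was tested on simulated data. Promoters come from RefSeq (GRCm38.p6), and copies and overlaps from GENCODE vM21 with blastn 2.17.0 at 90% identity over 100 bases. The 10 genes and the lists were chosen with earlier results of these data known. Named were the 10 genes, up to 4 genes per list with the smallest p, the 5 genes most like Ptgds and Ptgs2, and, where the text says so, genes chosen after their values were seen.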

Additional observations from a re-analysis of the deposited data

Results flagged for a closer look

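A single library lay far from the other 3 of its group, by Dixon's ratio of the gap to the range, in 4 of the 40 sets of 4 libraries tested, where chance gives about 1 in 20. Ptgis had 56.37 CPM in microbead replicate 1, against 32.8 to 34.1 CPM in the other 3. Hpgd had 30.61 CPM in microbead replicate 1, against 16.8 to 18.9 CPM in the others. Ptger4 had 7.232 CPM in aged replicate 4, against 4.0 to 4.4 CPM in the others, and 6.352 CPM in young replicate 3, against 3.5 to 4.0 CPM in the others.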

How the results depend on the processing

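Of 368 alternative values of single genes, 312 kept their direction and side of the threshold, 35 lost the call, 4 gained it and 17 changed sign. For microbead versus saline, 3 genes were called, 0 with all 16 libraries, 2 (Ptges3 and Hpgd) with no filter, 1 (Ptges3) without the length trend, 1 (Ptges3) among libraries of 1 code, and 1 to 3 on leaving out a library. For aged versus young, 4 genes were called, 1 (Ptges3) with all 16 libraries or without the length trend, and 3 to 4 on leaving out a library. For microbead versus aged, 1 gene was called, 0 with all 16 libraries, with no filter, with the replicate block or with only the compared groups, 2 with no minimum fold, and 0 to 2 on leaving out a library. For the difference of the responses, 0 genes were called, 1 (Ptgds) by DESeq2, and 0 to 1 on leaving out a library. For saline versus young no alternative called any. Removing the length trend left 968 genes called of all genes in microbead versus saline, and 3010 in aged versus young. The causes were not tested.

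Sign changes concerned genes that were not called. For microbead versus saline, the log2 fold change of Ptgds was -0.0537 among libraries of 1 code and -0.234 to 0.286 on leaving out a library, that of Ptges was -0.0884 with all 16 libraries, -0.0835 without the length trend and -0.0327 to 0.186 on leaving out a library, and that of Ptgfr was -0.242 without the length trend, -0.00856 among libraries of 1 code and -0.0858 to 0.134 on leaving out a library. Ptger4 spanned -0.235 to 0.0775 on leaving out a library. For aged versus young, Ptgfr was -0.0418 without the length trend, and Ptger4 was -0.0285 among libraries of 1 code and -0.0328 to 0.489 on leaving out a library.

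Replicate numbers gave no clear sign of pairing. Residuals of same-numbered microbead and saline libraries correlated at 0.10, -0.19 and 0.21, and those of aged and young ones at 0.14, -0.0028 and 0.33. Differently numbered libraries gave -0.29 to 0.39 and -0.43 to 0.37. So few values cannot exclude pairing, and the paper states that bead and saline nerves were handled in parallel. With the replicate block 3 and 4 genes were called in these comparisons, Ptgfr turned to -0.0080 in microbead versus saline, and the only call it ended was that of Ptgds in microbead versus aged (1.28, edgeR adjusted p = 0.059). Low counts limit Ptger2 and Ptger4.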
